A study of Mus musculus with 6 samples.

Results

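Of the 10 genes described here, 9 encode chains of cytokine receptors, namely Il4ra, Il2rg, Il13ra1, Il21r, Il6ra, Il6st, Il10ra, Ifngr1 and Il17ra. The tenth, Il1rn, encodes the interleukin-1 receptor antagonist, a secreted protein that occupies the interleukin-1 receptor without activating it, and is not a receptor. They were chosen by name, with earlier results of these data known, and matched on the gene symbol of the deposited count table. All 10 were found, each once, among its 54532 genes. The cells were BV2, an immortalised mouse microglial line, in 3 libraries labelled SMEK1 knockdown and 3 labelled WT. SMEK1 is a regulatory subunit of protein phosphatase 4, and its gene is listed as Ppp4r3a. Both groups were grown in serum-containing medium with antibiotics, and the labels name no cytokine, stimulus or time. In the design text both groups appear as knockdown derivatives of the line, and no source used here says whether the WT cells carry a control construct. These sources also do not name the knockdown construct, the number of clones, or how many cultures the 3 libraries of each group came from. The p-values below therefore measure the spread between these libraries, which may be technical.

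Cytokine receptors of this kind have no kinase activity of their own. A ligand draws a specific chain and a shared chain together, and Janus kinases (JAKs) bound to the chains then phosphorylate STAT proteins, which enter the nucleus. In microglia, the resident macrophages of the brain, IL-4, IL-13 and IL-10 are known for restraining inflammatory gene expression, and interferon-gamma for inducing it. IL-17 receptors signal through the adaptor Act1, and interleukin-1 receptors through MyD88 and IRAK kinases, rather than through JAKs.

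In the knockdown libraries transcripts of 3 chains of the IL-4 and IL-13 receptors, Il4ra, Il2rg and Il13ra1, were lower by 1.94-fold, 2.29-fold and 1.89-fold. Transcripts of Il10ra and Il17ra were lower by 1.43-fold and 1.34-fold. Il6st, which encodes gp130, the signalling chain shared by receptors of the IL-6 family, was higher by 1.91-fold. Il6ra, Ifngr1 and Il1rn did not pass the test, and Il21r had too few counts to be tested. The test (edgeR, adjusted p under 0.05) was passed by 6 of the 9 genes that entered it, 1 higher and 5 lower. Over all 12269 genes tested 40.1% were called, 20.5% higher and 19.6% lower, so a call alone was common. The median log2 fold change of the 9 was -0.43, against 0.01 over all genes tested. In 7 of the 9 the ranges of the groups did not overlap, as was the case for 50.9% of all genes tested. Since the genes were chosen with earlier results of these data known, these counts and the median describe the set and do not test it. These are bulk RNA measurements of a cell line, so fewer cells with a transcript and less of it per cell cannot be told apart, and receptor protein was not measured.

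The RefSeq promoter windows of the 4 tested members with the largest fold changes are shown because those genes differ in both direction and promoter composition. Each window runs from 250 bases before to 50 bases after a RefSeq transcription start in GRCm38.p6, 5′ to 3′ on the strand of the gene, and capitals mark CpG dinucleotides. The windows are chrX:101268206-101268505 (minus strand) for Il2rg, chr7:125552021-125552320 (plus) for Il4ra, chrX:36111858-36112157 (plus) for Il13ra1 and chr13:112463820-112464119 (plus) for Il6st.
Il2rg: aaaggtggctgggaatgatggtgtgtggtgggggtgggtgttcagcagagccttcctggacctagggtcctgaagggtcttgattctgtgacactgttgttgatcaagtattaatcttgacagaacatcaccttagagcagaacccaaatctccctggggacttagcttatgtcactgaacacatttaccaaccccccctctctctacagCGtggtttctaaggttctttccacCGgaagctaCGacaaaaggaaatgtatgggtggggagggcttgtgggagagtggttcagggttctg
Il4ra: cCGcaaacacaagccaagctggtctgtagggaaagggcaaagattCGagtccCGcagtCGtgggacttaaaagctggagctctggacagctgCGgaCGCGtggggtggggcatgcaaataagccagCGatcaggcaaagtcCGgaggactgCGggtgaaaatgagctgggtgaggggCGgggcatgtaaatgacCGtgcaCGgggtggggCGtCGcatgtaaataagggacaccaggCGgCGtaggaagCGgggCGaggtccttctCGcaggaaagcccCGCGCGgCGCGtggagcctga
Il13ra1: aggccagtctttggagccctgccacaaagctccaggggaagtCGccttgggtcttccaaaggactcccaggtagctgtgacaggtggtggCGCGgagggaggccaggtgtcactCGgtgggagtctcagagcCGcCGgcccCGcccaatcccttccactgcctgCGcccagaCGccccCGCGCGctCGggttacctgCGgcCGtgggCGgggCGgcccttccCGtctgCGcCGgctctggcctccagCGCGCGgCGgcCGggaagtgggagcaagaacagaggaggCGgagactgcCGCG
Il6st: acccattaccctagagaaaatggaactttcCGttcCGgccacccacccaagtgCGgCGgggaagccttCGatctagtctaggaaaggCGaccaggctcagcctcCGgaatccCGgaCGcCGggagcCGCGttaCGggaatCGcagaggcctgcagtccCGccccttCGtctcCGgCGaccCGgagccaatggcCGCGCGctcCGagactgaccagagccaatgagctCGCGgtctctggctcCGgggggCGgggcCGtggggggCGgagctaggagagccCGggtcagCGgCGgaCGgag
The Il2rg window holds 3 CpG dinucleotides and has a GC content of 50.3%. The Il4ra, Il13ra1 and Il6st windows hold 25, 28 and 33, with GC contents of 62.0%, 71.0% and 68.3%. The median over all 32851 windows was 7, and 68.6% of windows held more CpG than that of Il2rg, whereas 7.73% held more than that of Il6st. Thus, of the 4 genes shown, the 3 that fell include the CpG-poor window of Il2rg and the CpG-rich windows of Il4ra and Il13ra1. Il6st, which rose, has the most CpG of the members' windows that were matched. RefSeq windows were matched for 8 of the 10 genes, not for Il10ra or Il17ra, which also fell. The other CpG counts were 25 for Il6ra, 14 for Ifngr1, 7 for Il21r, and 1, 5 and 4 for the 3 windows of Il1rn. The palindrome TTCNNNGAA, which STAT dimers bind, was searched on both strands and was found in 0 of the 10 windows of these 8 genes. It was present in 8.30% of all windows of this length, so 0 of 10 shows only that the letters are not in these windows.

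Depth ranged from 18627425 to 21131557 counts among the knockdown libraries and from 18036591 to 18708438 among the WT ones, so that 1 count was worth 0.0473 to 0.0554 CPM (counts scaled to a common library size) before TMM scaling. Counts of Ppp4r3a, the targeted gene, were 48, 122 and 94 in knockdown libraries A, B and C, against 335, 227 and 260 in WT libraries A, B and C. Its log2 fold change was -1.94 ± 0.24 (SE), with an adjusted p of 8.22e-05 in edgeR's quasi-likelihood test. The summed level of 11 microglial markers was 2695 to 2958 CPM in the knockdown libraries and 2949 to 3195 CPM in the WT libraries, and 3 of the 11 were called higher and 4 lower. The most abundant were Trem2 (969 CPM in knockdown, 754 CPM in WT) and Cd68 (855 and 1104 CPM), which moved in opposite directions. Tmem119 rose by 1.00 and Csf1r fell by 0.73 on the log2 scale, which the sum does not show. Of the 11 the defining microglial markers P2ry12 and Cx3cr1 were close to absent, with 0 to 2 and 1 to 11 counts in a library. The 6 T cell markers, of which Cd3e, Cd3g and Cd8a had 0 counts, summed to 13.7 to 18.2 CPM in knockdown and 15.2 to 19.3 CPM in WT. Neuronal markers summed to 1.1996 to 2.08 CPM in knockdown and 0.477 to 0.706 CPM in WT, with 1 of 5 called higher, and neutrophil markers to 0.271 to 0.993 CPM and 1.24 to 1.35 CPM. Summed markers of B cells, NK cells, astrocytes and of fibroblasts and endothelium each stayed at or under 0.904 CPM in every library. The 5 oligodendrocyte markers summed to 7.15 to 7.41 CPM in knockdown and 2.53 to 2.81 CPM in WT, with 1 of 5 called higher. The part of these marker differences in the results was not tested.

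**Figure D1:**
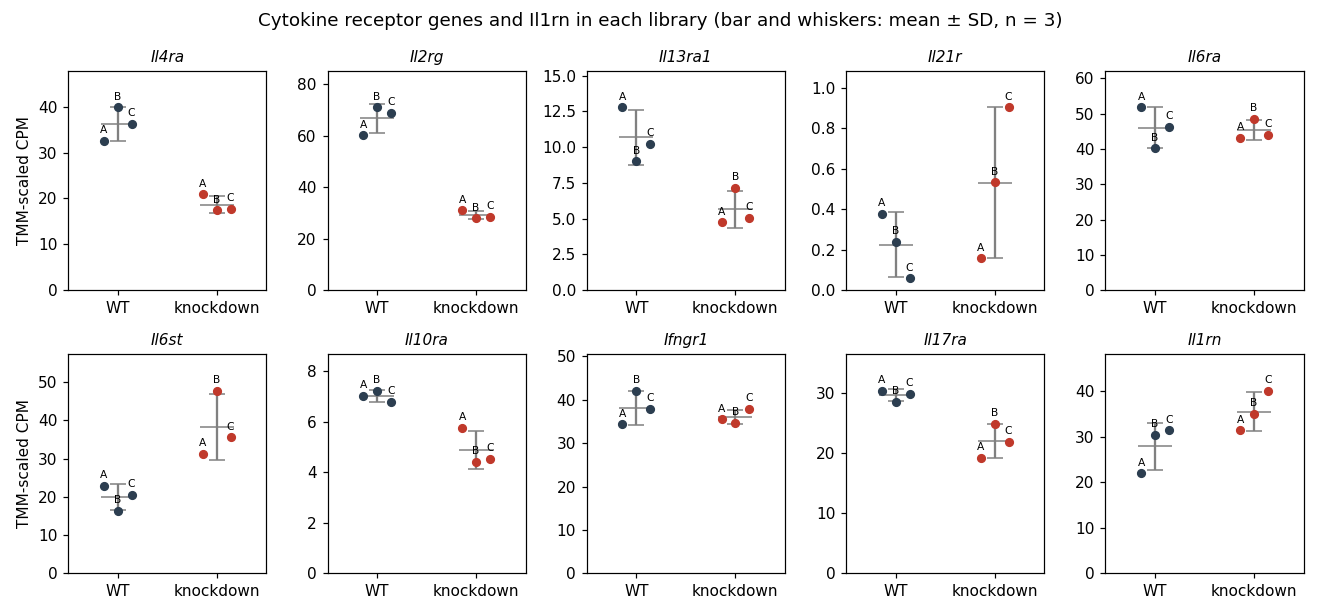
Transcript level of each of the 10 genes in every library (y axes: CPM scaled by TMM, starting at 0; points: libraries A, B and C; horizontal bar and whiskers: mean ± SD, n = 3). The 3 knockdown points lie below the 3 WT points for Il4ra, Il2rg, Il13ra1, Il10ra and Il17ra and above them for Il6st and, by a narrow margin, Il1rn, and the groups overlap for Il21r, Il6ra and Ifngr1.

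The IL-4 receptor alpha chain binds IL-4 and is shared by the receptors of IL-4 and IL-13. Its gene Il4ra lies on chromosome 7 (125552120 to 125579474, plus strand, GRCm38). Levels, given throughout as CPM scaled by the TMM method of edgeR, were 20.9, 17.4 and 17.8 in knockdown libraries A, B and C, against 32.6, 39.9 and 36.3 in WT libraries A, B and C. The highest knockdown library was far below the lowest WT library. Means were 18.7 ± 1.94 CPM and 36.2 ± 3.63 CPM (SD, n = 3), a log2 fold change of -0.96 ± 0.12 (SE) with an adjusted p of 8.5e-05 in edgeR's quasi-likelihood test. The common gamma chain, encoded by Il2rg on the X chromosome (101264378 to 101268255, minus strand), joins the IL-4 receptor alpha chain in the type I IL-4 receptor and also serves IL-2, IL-7, IL-9, IL-15 and IL-21. Il2rg stood at 30.9, 27.9 and 28.4 CPM in the knockdown libraries and at 60.1, 71.0 and 68.9 CPM in the WT libraries. The 3 knockdown libraries lay close together, below every WT library. The means of 29.1 ± 1.64 and 66.6 ± 5.78 CPM gave a log2 fold change of -1.20 ± 0.10, with an adjusted p of 2.97e-06 (edgeR), the largest fold change among the 9 tested members.

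IL-13 receptor alpha 1, from Il13ra1 on the X chromosome (36112110 to 36171259, plus strand), pairs with the IL-4 receptor alpha chain in the type II receptor, which answers to both IL-4 and IL-13. Il13ra1 was measured at 4.76, 7.15 and 5.06 CPM in the knockdown libraries and 12.8, 9.01 and 10.2 CPM in the WT libraries, from 91 to 237 counts. Knockdown library B was the highest of its group and WT library B the lowest of its own, and the groups did not overlap. From 10.7 ± 1.93 to 5.66 ± 1.31 CPM it fell by 0.91 ± 0.21 on the log2 scale (adjusted p = 0.00426, edgeR). Il4ra, Il2rg and Il13ra1 were called in all 19 settings of scaling, filter, test and left-out library, with log2 fold changes of -1.04 to -0.78, -1.27 to -1.04 and -1.10 to -0.63.

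Il21r, the specific chain of the IL-21 receptor, lies next to Il4ra on chromosome 7 (125603429 to 125633570), 23954 bases beyond its end with 0 annotated genes between. It had 3, 12 and 20 counts in the knockdown libraries and 7, 4 and 1 in the WT libraries, and the groups overlapped. Over each group this was 35 against 12 counts, a ratio of 2.39 after TMM scaling. The exact 95% counting interval of 1.21 to 5.06 covers counting error only. The gene failed the filter on low counts. When every gene with at least 1 count was kept, its log2 fold change was 1.25 ± 0.67 with an adjusted p of 0.184 (edgeR). The neighbouring genes thus gave values of opposite sign, with only that of Il4ra past the test.

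The IL-6 receptor alpha chain, from Il6ra on chromosome 3 (89864059 to 89913196, minus strand), binds IL-6 and can be shed from the cell as a soluble receptor. Its level was 43.2, 48.5 and 44.1 CPM in the knockdown libraries and 51.8, 40.2 and 46.3 CPM in the WT libraries. The groups overlapped throughout, with WT libraries both above and below all knockdown libraries. Means were 45.3 ± 2.84 and 46.1 ± 5.83 CPM, and the log2 fold change of -0.03 ± 0.11 had an adjusted p of 0.865 (edgeR) and changed sign with the scaling. The signalling chain gp130, from Il6st on chromosome 13 (112464070 to 112510086, plus strand), transmits the signal of IL-6, IL-11, LIF, oncostatin M and related cytokines. Il6st was present at 31.3, 47.8 and 35.6 CPM in the knockdown libraries and 22.9, 16.4 and 20.5 CPM in the WT libraries. The lowest knockdown library was above the highest WT library, and knockdown library B stood well above the other two of its group. Il6st rose by 0.94 ± 0.17 on the log2 scale (adjusted p = 0.000916, edgeR), from 20.0 ± 3.30 to 38.2 ± 8.54 CPM, and was called in all 19 settings with values of 0.65 to 1.10.

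IL-10 receptor alpha, the ligand-binding chain for IL-10, comes from Il10ra on chromosome 9 (45253837 to 45269149, minus strand). With 99 to 130 counts per library, Il10ra was at 5.75, 4.398 and 4.52 CPM in the knockdown libraries and 7.02, 7.22 and 6.77 CPM in the WT libraries. The WT libraries lay close together and above all knockdown libraries. From 7.002 ± 0.227 to 4.89 ± 0.747 CPM it fell by 0.52 on the log2 scale (SE 0.18), with an adjusted p of 0.0400 in edgeR's quasi-likelihood test, just under the threshold. The call was lost in 9 of the 19 settings, among them DESeq2 (adjusted p = 0.0522) and scaling by library totals (0.122), and on leaving out each library but knockdown A, with adjusted p-values up to 0.152 without knockdown C.

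Interferon-gamma receptor 1, the ligand-binding chain from Ifngr1 on chromosome 10 (19591949 to 19610229, plus strand), did not pass the test. Ifngr1 levels were 35.5, 34.6 and 37.8 CPM in the knockdown libraries and 34.3, 42.1 and 37.9 CPM in the WT libraries. The ranges overlapped, with the WT libraries the more spread. Means of 36.0 ± 1.66 and 38.1 ± 3.90 CPM gave a log2 fold change of -0.08 ± 0.10 (adjusted p = 0.556, edgeR), and no setting called it.

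The second chains of these 2 receptors were higher in the knockdown libraries. Il10rb, the signalling partner of Il10ra that IL-22 and other cytokines also use, rose by 0.60 ± 0.09 on the log2 scale, from 47.7 ± 2.99 to 72.2 ± 5.31 CPM (adjusted p = 0.000275, edgeR). Ifngr2, the signalling partner of Ifngr1, rose by 0.76 ± 0.09, from 106.6 ± 8.55 to 181.0 ± 16.4 CPM (adjusted p = 6.23e-05, edgeR). Both lie on chromosome 16 within a stretch of 192841 bases that also holds Ifnar2 and Ifnar1, chains of the type I interferon receptor, with log2 fold changes of 0.87 and 0.76. The other 373 tested genes of chromosome 16 had a median of 0.39 with 54.7% called. Relative to that median Il10rb was higher by 0.21, Ifnar1 and Ifngr2 by 0.37 and Ifnar2 by 0.48, and the part of the chromosome in these values was not tested. The chromosomes of the members themselves had medians between -0.07 (X) and 0.14 (chromosome 2, with Il1rn).

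IL-17 receptor A, from Il17ra on chromosome 6 (120463247 to 120487559, plus strand), is shared by the receptors of IL-17A, IL-17F and IL-25. It was measured at 19.2, 24.8 and 21.9 CPM in the knockdown libraries and 30.3, 28.5 and 29.8 CPM in the WT libraries. All WT libraries were above all knockdown libraries. Means were 29.5 ± 0.966 and 21.96 ± 2.83 CPM, a log2 fold change of -0.43 ± 0.12 (adjusted p = 0.0130, edgeR). It was called in 16 of the 19 settings, and those that lost it included library totals (adjusted p = 0.13) and leaving out WT library C (0.0513). Its partner for IL-17A, Il17rc, was far less abundant, with 11, 6 and 12 counts in knockdown and 28, 31 and 25 in WT. The log2 fold change of Il17rc was -1.80 ± 0.37 (adjusted p = 0.00225, edgeR).

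The antagonist gene Il1rn lies on chromosome 2 (24336853 to 24351494, plus strand). It was present at 31.5, 35.1 and 40.2 CPM in the knockdown libraries and 21.97, 30.4 and 31.4 CPM in the WT libraries. The lowest knockdown library was just above the highest WT library, and WT library A stood below the rest. Means were 35.6 ± 4.37 and 27.9 ± 5.19 CPM, and the log2 fold change of 0.35 ± 0.14 did not pass (adjusted p = 0.0717, edgeR). In 4 of the 19 settings it was called, including library totals (0.52, adjusted p = 0.0136) and leaving out knockdown library A (adjusted p = 0.0426). Il1r1, the receptor that the antagonist blocks, had 0, 6 and 2 counts in knockdown and 13, 16 and 14 in WT, with a log2 fold change of -2.66 ± 0.63 (adjusted p = 0.00585, edgeR). Il1rap, its co-receptor chain, had 33, 59 and 41 counts in knockdown and 5, 10 and 21 in WT, and rose by 1.57 (SE 0.43, adjusted p = 0.0131).

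**Figure D2:**
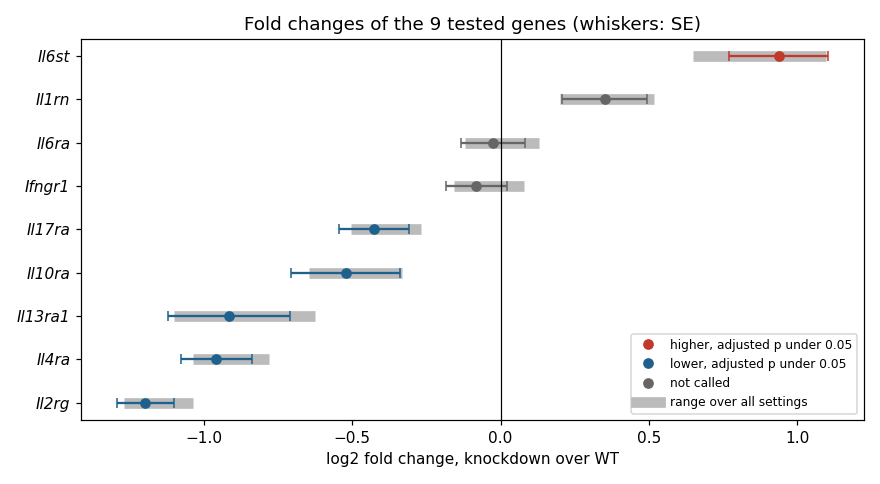
Log2 fold change, knockdown over WT, of the 9 tested genes (points with whiskers: value ± SE from edgeR; grey bars: range over the 19 settings). Il2rg, Il4ra and Il13ra1 lie near -1 and Il6st near 1 with grey bars that stay on one side of 0, whereas the bars of Il6ra and Ifngr1 cross 0.

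To compare levels between genes, which differ in length, the deposited FPKM (fragments per kilobase of the gene, scaled for depth) were used. The order in the WT libraries was Il2rg at 27.8 ± 2.36 FPKM, Ifngr1 at 13.3 ± 1.34, Il4ra at 6.02 ± 0.593, Il6ra at 5.32 ± 0.682, Il1rn at 5.03 ± 0.925, Il17ra at 3.40 ± 0.117, Il13ra1 at 2.87 ± 0.524, Il10ra at 2.00 ± 0.0649, Il6st at 1.79 ± 0.300 and Il21r at 0.0676 ± 0.0481 (SD, n = 3). Il4ra overlapped with Il6ra, Il6ra with Il1rn, Il17ra with Il13ra1 and Il10ra with Il6st, so neighbours in these pairs were not separated. Among the knockdown libraries Ifngr1 at 12.5 ± 0.664 FPKM and Il2rg at 12.1 ± 0.858 led and overlapped. They were followed by Il1rn at 6.36 ± 0.760 FPKM, Il6ra at 5.18 ± 0.247, Il6st at 3.40 ± 0.705, Il4ra at 3.08 ± 0.364, Il17ra at 2.51 ± 0.284, Il13ra1 at 1.51 ± 0.323, Il10ra at 1.39 ± 0.232 and Il21r at 0.158 ± 0.111. There Il6st overlapped with Il4ra and Il13ra1 with Il10ra. Il6st moved from rank 9 in WT to rank 5 in knockdown, and Il4ra from rank 3 to rank 6.

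Ratios between 2 chains within a library do not depend on how libraries are scaled. For 7 pairs they were computed from the FPKM and compared by a two-sided exact permutation test, in which 3 against 3 libraries cannot go below p = 0.1. Il6ra exceeded Il6st by 1.77, 1.30 and 1.59 times in knockdown libraries A, B and C, against 2.90, 3.14 and 2.89 times in WT libraries A, B and C. The groups did not overlap, and the log2 ratio was lower in knockdown by 0.95, with the binding chain level and the signalling chain higher. Il10ra over Il10rb was 0.0807, 0.0716 and 0.0680 in knockdown and 0.167, 0.154 and 0.159 in WT, a log2 difference of -1.13 in which a lower Il10ra and a higher Il10rb add up. Ifngr1 over Ifngr2 was 0.238, 0.278 and 0.277 in knockdown and 0.468, 0.506 and 0.4445 in WT, a log2 difference of -0.84. For each of these 2 receptors the second chain was the more abundant transcript in every library. Both second chains lie on chromosome 16, where 373 tested genes outside the receptor cluster had a median log2 fold change of 0.39. The part of the chromosome in these ratios was not tested, and Il10ra itself was called in only 10 of the 19 settings. Il17ra over Il17rc was 10.3, 28.7 and 12.4 in knockdown and 6.19, 4.74 and 6.25 in WT, a log2 difference of 1.44 that rests on the 6 to 31 counts of Il17rc.

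Within the type I IL-4 receptor, Il4ra over Il2rg was 0.269, 0.248 and 0.248 in knockdown and 0.216, 0.223 and 0.209 in WT. The log2 difference was only 0.24, since both genes fell, but the groups did not overlap. These 5 pairs had the smallest possible p of 0.1 (0.14 after Benjamini-Hochberg adjustment over the 7), so none could pass. Il4ra over Il13ra1, the type II pair, was 2.72, 1.502 and 2.17 in knockdown and 1.58, 2.74 and 2.19 in WT. Its groups overlapped fully, with a log2 difference of -0.03 (exact permutation p = 0.7). Il21r over Il2rg overlapped as well (log2 difference 2.47, p = 0.2, adjusted 0.233, exact permutation). Il6st over Osmr and Il1rn over Il1r1 were not computed, since Osmr had 0 counts in every library and Il1r1 had 0 in knockdown library A.

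**Figure D3:**
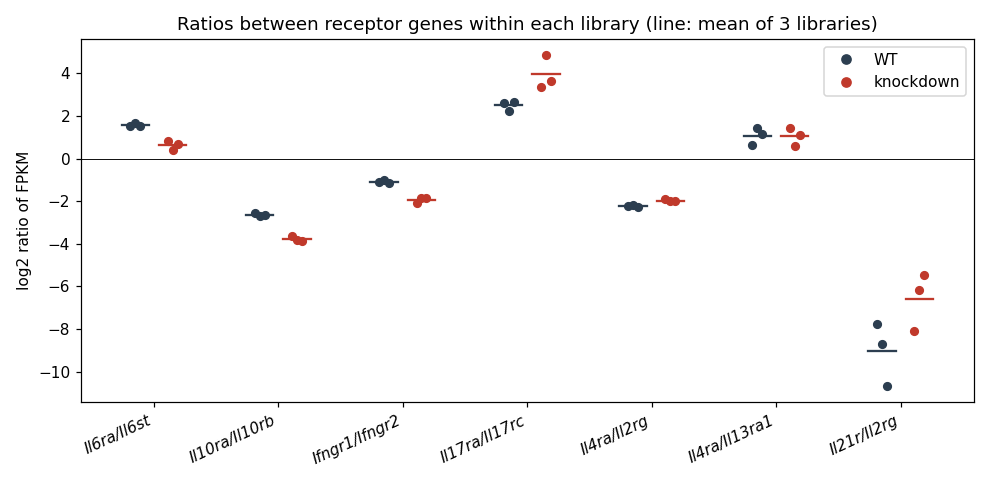
Log2 ratio of the FPKM of 2 receptor genes within each library for 7 pairs (points: libraries; line: mean of 3). The groups are apart for the first 5 pairs, lower in knockdown for Il6ra/Il6st, Il10ra/Il10rb and Ifngr1/Ifngr2 and higher for Il17ra/Il17rc and Il4ra/Il2rg, and they overlap for the last 2.

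Libraries of 1 group differed from each other in a way that many genes shared. Il6ra, Il6st, Il13ra1 and Il17ra had the order B, C, A from high to low in the knockdown libraries and A, C, B in the WT libraries, as did 12.2% of all genes tested and the targeted Ppp4r3a. Il4ra and Il2rg had the reverse of this in both groups, as did 11.7%. A first principal component of the deviations from the group means held 53.2% of their variance. The largest deviations among the members were those of Il6st, which on the log2 scale were -0.26, 0.34 and -0.08 for A, B and C of the knockdown group, against 0.21, -0.26 and 0.05 for A, B and C of the WT group. Il13ra1 followed with -0.21, 0.33 and -0.13 in knockdown and 0.26, -0.22 and -0.04 in WT. Genes longer than 8 kb deviated the same way, with medians over 1901 genes of -0.14, 0.15 and -0.01 in knockdown and 0.11, -0.10 and 0.00 in WT. Il6st is among these long genes at 11099 bases, as are Il17ra at 8662 and Il6ra at 8642, but Il13ra1 has 3712. Between the groups the median log2 fold change of genes over 8 kb was -0.09, with 13.9% called higher.

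With that component as a covariate, an alternative added after the data were seen, the 9 tested members kept the sign of their fold changes and each had a smaller SE. The component was computed from the same libraries, so these p-values are too small. Il6st was then at 0.93 ± 0.09 (adjusted p = 1.78e-08, edgeR), Il10ra at -0.53 (adjusted p = 0.0057) and Il17ra at -0.43 (adjusted p = 0.000208). Il1rn, at 0.36, passed in that fit (adjusted p = 0.00949), whereas Il6ra (adjusted p = 0.819) and Ifngr1 (adjusted p = 0.438) did not.

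**Figure D4:**
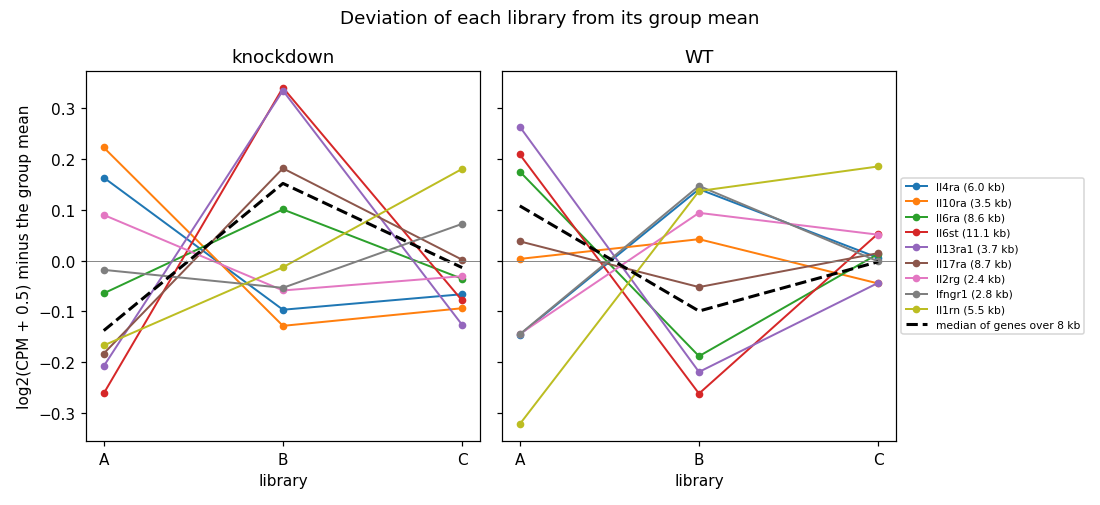
Deviation of log2(CPM + 0.5) from the mean of the group in each library for the 9 tested genes, with gene lengths in the key. The dashed line is the median of 1901 genes longer than 8 kb. Lines join the libraries of 1 gene, and no pairing of the groups by letter is assumed. Il6st and Il13ra1 peak in knockdown B and dip in WT B with the dashed line, and Il4ra and Il2rg run the other way.

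By Pearson's r of log2(CPM + 0.5) over the 6 libraries, the 3 genes most like Il2rg among the 9106 genes that averaged 5 CPM or more were 4930455G09Rik (r = 0.9997), Pilra (0.9993), an inhibitory receptor of myeloid cells, and Psme3 (0.9991), a proteasome activator. Their log2 fold changes were -1.23, -1.89 and -1.37, against -1.20 for Il2rg. With 2 groups of 3 libraries, such values of r mainly reflect the difference between the groups.

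Reads of genes that overlap a member on the opposite strand cannot be separated without a stated use of strand. Gm20489 over Il2rg and Mir7086 over Il10ra lie on the member's own strand, where strand does not separate reads. The genes annotated over Il4ra, Il10ra, Il6ra and Il2rg had 0 to 10 counts in all 6 libraries together, against 99 or more counts per library for these members. Such counts do not show whether reads of a member were left out as shared with another gene.

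Other receptor chains, ligands, signalling genes and response genes of the same pathways were taken from lists of 164 measured genes, of which 108 were tested. Of these 21 were called higher and 39 lower, 60 in all, with a median log2 fold change of -0.07, beside the 40.1% called over all genes tested. Under library totals the split was 33 higher and 26 lower. The lists, like the members, were chosen with earlier results of these data known. Chains that share a ligand or partner with the members moved in both directions. Among interferon and IL-10 family receptors 4 of 5 tested were higher and 0 lower. These 4 are the chromosome 16 neighbours Ifnar2, Il10rb, Ifnar1 and Ifngr2, and 54.7% of the other tested genes of that chromosome were called. All 3 tested chains of the IL-3, IL-5 and GM-CSF receptors were lower, namely Csf2rb2 (-0.81 ± 0.08), Csf2rb (-0.43 ± 0.07) and Csf2ra (-0.29 ± 0.09, lost in 5 settings), and Csf2rb and Csf2rb2 are near-identical copies whose reads may be shared. Of 6 tested IL-1 family receptors 3 were lower and 1 higher, led by Sigirr, an inhibitory member, at -1.97 ± 0.19 (adjusted p = 1.24e-05, edgeR), and Il1r2, a decoy receptor, was at -1.91 ± 0.48. Il7r, a partner of Il2rg, rose by 1.05 ± 0.34 (adjusted p = 0.028), but its groups overlapped and the call was lost in 7 settings. Of other receptor chains of the gp130 type 0 of 3 tested passed in edgeR, DESeq2 or limma-voom. In edgeR 1 of the 3 had an unadjusted p under 0.05, Il12rb2 of the IL-12 receptor (0.72 ± 0.29, adjusted p = 0.0633), and 1 chain was called without knockdown library A, under library totals, with at least 1 count in any library or with the covariate. The chains Lifr, Osmr, Cntfr, Il31ra and Il23r had 0 counts, which allows up to 0.0497 CPM over the knockdown group and 0.0543 CPM over the WT group.

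Ligands of these receptors were mostly near or at 0, with 5 of 21 tested. Of these 5, 2 were called, beside 40.1% of all genes tested. Osm (30.2 CPM in knockdown, 33.4 CPM in WT), Il15 (10.6 and 11.3 CPM) and Il4 (0.798 and 0.733 CPM) were not called. Il13, Il17a, Il17f, Il21 and Ifng had 0 counts in all libraries. Ebi3, a subunit of IL-27 and IL-35, fell by 2.74 on the log2 scale (SE 0.18) and Il18 by 1.07 (SE 0.21).

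Of the Janus kinases and STATs 7 of 10 tested were lower and 0 higher, with a median of -0.46. Stat3, which acts below gp130 and the IL-10 receptor, fell from 71.7 ± 2.09 to 29.8 ± 4.03 CPM, a log2 fold change of -1.27 ± 0.10 (adjusted p = 3.32e-06, edgeR). Thus Il6st and Stat3, which act in sequence, changed in opposite directions. Stat5a fell by 0.67, Jak2 by 1.23, Jak3 (the kinase of the common gamma chain) by 0.45 and Stat6 (the STAT of the IL-4 receptor) by 0.28. Stat6 lost its call in 6 settings, Jak3 in 3 and Jak2 in 2. Jak1 (0.01) and Tyk2 (0.11) were not called. Only 3 of the 10 were lower without knockdown library C, without WT library C or under library totals, the last of which also called 1 higher. Of 16 negative regulators 4 were higher, led by Socs6 (0.97), Pias3 (0.83) and Ptpn11 (0.34), and 2 lower. These 6 of 16 called are near the 40.1% called over all genes tested. Socs1 (0.50, adjusted p = 0.279) and Socs3 (-0.04, adjusted p = 0.818), the feedback inhibitors best known below these receptors, were not called, and Cish was too low to be tested. Under library totals 7 of the 16 were higher and 1 lower.

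Of 11 tested adaptors of the IL-17 and IL-1 receptors 2 were higher and 2 lower, with Traf3ip2, which encodes Act1, at -0.96 ± 0.19, Irak4 at -0.88 ± 0.16 and Irak2 at 0.51 ± 0.11. Of 7 tested genes for receptor shedding and trafficking 1 was higher and 2 lower, with Stam2 at 0.37, Rhbdf2 at -0.43 (lost in 2 settings) and Stub1 at -0.35 (lost in 1). Under library totals 2 of the 7 were higher and 0 lower. In the reported fit 4 of the 11 and 3 of the 7 were called, near the 40.1% over all genes tested.

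Genes known to respond to the cytokines of these receptors did not move as one. The counts below stand beside 40.1% called over all genes tested. Of 9 tested IL-4 and IL-13 response genes 4 were lower and 2 higher, with a median of -0.62. Tgm2 fell by 2.57 (SE 0.36) and Irf4 by 1.08 (SE 0.26), whereas Arg1, the arginase of alternatively activated macrophages, rose by 3.45 (SE 0.44, adjusted p = 9.03e-05, edgeR), from 3, 8 and 8 counts in WT to 116, 62 and 76 in knockdown. Of 14 genes that respond to IL-10 or IL-6 through STAT3 6 were lower and 2 higher, and Zfp36 (-1.34), Junb (-0.91) and Fosl2 (-0.86) had the smallest adjusted p-values. Under library totals 4 of the 14 were lower and 4 higher. Of 11 interferon-gamma response genes 5 were lower and 3 higher, and 3 were lower without WT library C, with Irgm1 at -1.76, Cxcl10 at -2.69 and Cd274 at 1.41. Under library totals 4 were lower and 4 higher. Of 5 tested IL-17 response genes 2 were lower, Cxcl2 (-3.04) and Zc3h12a (-0.45, lost in 11 settings), and 1 was higher, Il34 (2.62), a ligand of the CSF1 receptor, against 1 lower and 2 higher under library totals.

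**Figure D5:**
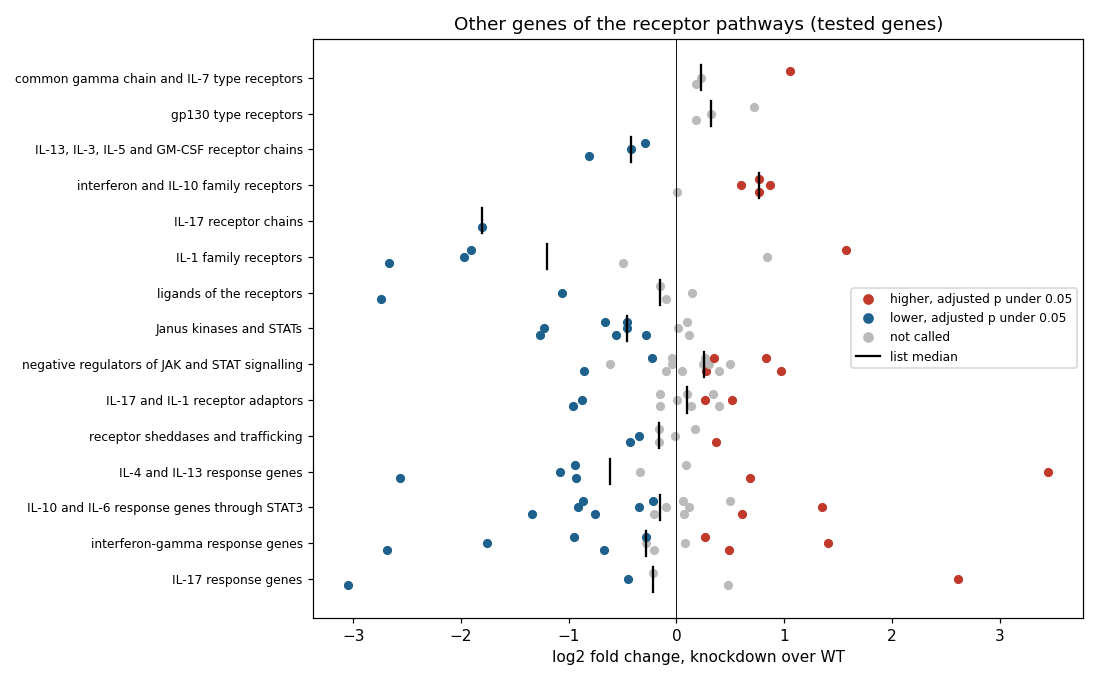
Log2 fold change, knockdown over WT, of each tested gene in the 15 lists of other pathway genes (points: genes, coloured by edgeR's call at an adjusted p under 0.05; black bars: list medians). The interferon and IL-10 family receptors lie above 0 or at it, the Janus kinases and STATs at or below 0.11, and the response gene lists spread to both sides. Socs2, which is in 2 lists, is drawn only among the negative regulators and not among the IL-4 and IL-13 response genes, but enters the medians of both.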

How the data were processed

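The authors deposited whole-number counts per gene for 54532 mouse genes and FPKM per gene in 6 RNA-seq libraries. Per the submitters' processing notes the build was GRCm38 (mm10). No source used here names the aligner, the counter, its strand setting or the annotation release. The deposited FPKM equalled the count over gene length and a constant of the library, which was 1.02 to 1.12 times the library's total in knockdown and 0.911 to 0.991 times in WT. Columns were matched to samples by group and library letter.

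The counts went into edgeR 4.0.16 (R 4.3.3): filterByExpr, TMM, glmQLFit and glmQLFTest without a covariate. P-values were adjusted by Benjamini-Hochberg across the 12269 genes kept, and a gene was called at an adjusted p under 0.05. The SE is the size of the log2 fold change over the square root of F. The biological coefficient of variation was 0.121. Groups overlap where the ranges of their CPM do. Intervals and the floor of 3 counts cover counting error only. Ratios of FPKM were compared by exact permutation. The script was tested on simulated data.

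The members and lists were chosen with earlier results of these data known. Named were all members, set partner chains and, of each list, the called genes with the 3 smallest adjusted p-values. Some genes that were not called or had 0 counts were named besides. Hgs was left out, since 2 gene IDs share its symbol. Alternatives were other scalings (DESeq2 size factors, library totals, upper quartile), filters (at least 1 count in any library, 1 CPM in 3 libraries), DESeq2 1.42.0, limma 3.58.1 (voom, and log2 FPKM plus 1 or 0.1), protein-coding genes alone, a replicate block and each library left out. Protein sequences were not analysed here, and 1 gene that the rule names is not reported here.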

Additional observations from a re-analysis of the deposited data

How the results depend on the processing

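Across 19 settings the count of members called ranged from 4 to 7, against 6 in the reported fit. Il4ra, Il2rg, Il13ra1 and Il6st were called in each setting. Il10ra was called in 10 of 19 and Il17ra in 16. The sign changed only for members that were not called. Il6ra went from -0.03 to 0.13 with library totals and 0.0046 with genes of at least 1 count in any library, and ranged from -0.12 to 0.064 with 1 library left out. Ifngr1 went from -0.08 to 0.080 with library totals. Library totals raised the median of all genes by 0.16 on the log2 scale, and 71.3% of calls were then higher, against 51.1%. That scaling called 2 members higher and 3 lower. With the library letter as a replicate block 4 members and 3326 genes were called, against 6 and 4918, and Il10ra (adjusted p = 0.11) and Il17ra (0.0536) lost their call, and 3 of the 10 Janus kinases and STATs were lower, against 7. Deviations from the group means in libraries of the same letter correlated at -0.44, -0.41 and -0.0038, which gives no sign of pairing by letter. A first principal component held 53.2% of the variance of these deviations, so a smaller effect shared by a letter could go unseen. Leaving out WT library C left 4 members called and leaving out knockdown library A gave 7. Leaving out 1 library assumes that the remaining ones vary alike. Il21r, with 1 to 20 counts per library, entered the test in 5 settings and was called in 0 of them (lowest adjusted p 0.0694).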
